A study of Rattus norvegicus with 6 samples.

Results

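Of the RNAs made from the mitochondrial genome, 8 are described here: the ribosomal RNAs Mt-rnr1 and Mt-rnr2, and the protein-coding transcripts Mt-co1, Mt-co2, Mt-co3, Mt-atp8, Mt-atp6 and Mt-cyb. They were chosen by Ensembl rat gene ID from the 32883 genes of the deposited count table. The symbols come with that list of IDs, because the table itself holds IDs only. All 8 were in the table, and all 8 passed the filter on low counts that left 13823 genes for testing. The lowest count of any of them was 352 in a pulldown library and 17175 in a lysate library, so none was too low to measure.

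The libraries come from ventricular cardiomyocytes of rats at postnatal days 1 to 2, cultured after a pre-plating step that depletes other cells. All the cells, those of the reference samples included, carried an adenovirus with FLAG-tagged MBNL1, given at a multiplicity of infection of 100 for 48 h. The tagged protein, muscleblind-like 1, binds RNA and is known for its part in alternative splicing and in the placing and stability of mRNAs. RNA recovered with an anti-FLAG antibody from cleared lysate (RIP, 3 libraries) was compared with 10% of the same kind of lysate set aside before the antibody was added (Input, 3 libraries), to find which transcripts come down with the tagged protein. The protein was supplied by a virus rather than measured at its native level, and pulldowns with control IgG and cells without the virus were not analysed here. RNA held by beads or antibody alone therefore has no measure in these values. The cell type was not checked against marker genes, since the IDs could not be paired with symbols.

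Mitochondria keep a small circular genome in the matrix. Both strands are transcribed into long precursors, which are cut into ribosomal RNAs, transfer RNAs and mRNAs, and these mRNAs are translated by the mitochondrion's own ribosomes. The products are core subunits of the respiratory chain, and the mRNAs are among the most abundant RNAs of heart muscle, which draws most of its ATP from oxidative phosphorylation.

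Every one of the 8 RNAs was scarcer in the pulldown than in the lysate. All 8 of 8 passed the test in the lower direction (edgeR quasi-likelihood test with Benjamini-Hochberg adjustment over all genes tested, threshold 0.05), against 34.9% of all tested genes. With library sizes only in place of TMM scaling that background was 40.4%, the median log2 fold change of all genes moved from -0.03 to -0.18, and the share of called genes that were lower in RIP rose from 51.4% to 61.8%. A further 33% of all tested genes were called higher in RIP. For each of the 8, every RIP library lay below every Input library, as it did for 36.8% of all tested genes. A drop of 8-fold or more was estimated for 7 of the 8, and for 0.658% of all tested genes. The median log2 fold change (RIP over Input) of the 8 was -5.34, where all tested genes had a median of -0.03 and their lowest 1% began at -2.71. The exception was Mt-cyb, with a log2 fold change of -1.48.

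Summed, the 8 RNAs took 17.8%, 14.2% and 17.2% of the counts in Input 1, 2 and 3, and 1.00%, 0.78% and 1.35% in RIP 1, 2 and 3. Every pulldown library was thus far below every lysate library. The means were 16.4% ± 1.89 and 1.05% ± 0.29 (SD, n = 3 each), and the groups did not overlap (two-sided exact permutation test, p = 0.1, the smallest that 3 against 3 libraries allow; 0.1 after adjustment over 5 sums). These are shares of a library, relative to the other RNA in it. The other 7 RNAs, leaving out Mt-cyb, took 14.3% ± 1.44 of Input counts and 0.347% ± 0.0328 of RIP counts (SD, n = 3 each). Mt-cyb alone made up most of what remained in RIP.

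**Figure D1:**
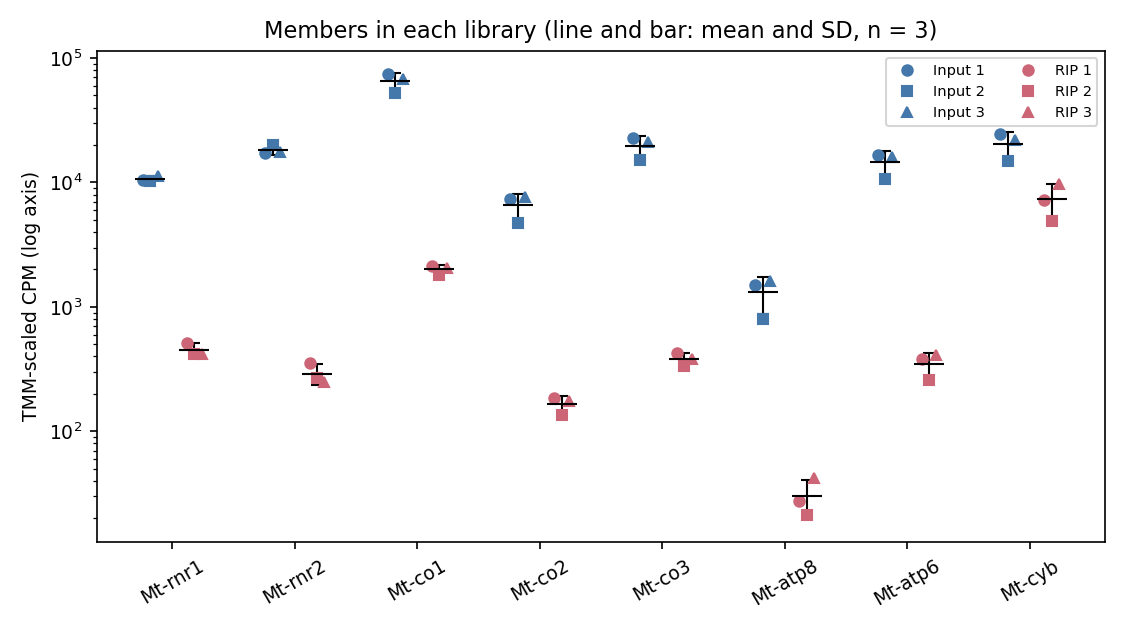
Level of each of the 8 RNAs in every library, as TMM-scaled CPM on a log axis. Blue symbols are Input, red symbols RIP, shapes mark the replicate number, and horizontal lines with bars are the mean and SD of 3 libraries. RIP lies below Input for every RNA, and the gap is narrowest for Mt-cyb.

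The ribosomal RNAs form the core of the mitochondrial ribosome, Mt-rnr1 in its small subunit and Mt-rnr2 in its large subunit. Mt-rnr1 (ENSRNOG00000030478) measured 10480, 10210 and 11240 CPM in Input 1, 2 and 3 and 517.9, 416 and 417.5 CPM in RIP 1, 2 and 3 (CPM, read counts relative to the TMM-scaled library total, the scale of every level below). All RIP values lay far below all Input values, and the Input values differed little among themselves. Its log2 change, RIP over Input, was -4.56 ± 0.11 (SE; adjusted p of 3.08e-18 by edgeR), a 23.6-fold drop. Mt-rnr2 (ENSRNOG00000043866) measured 17240, 20180 and 17420 CPM in Input and 354.5, 269.7 and 249.9 CPM in RIP. It was highest in Input 2, and in RIP it was highest in replicate 1. Its log2 change, RIP over Input, was -5.97 ± 0.14 (SE; adjusted p of 1.79e-18 by edgeR), a 62.7-fold drop that ranked 3 among all 13823 genes.

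The ribosomal RNAs differed in the size of their drop. The count ratio of Mt-rnr1 to Mt-rnr2 was 0.608, 0.506 and 0.645 in Input 1, 2 and 3 and 1.46, 1.54 and 1.67 in RIP 1, 2 and 3. A ratio within a library does not depend on how libraries are scaled against each other, and gene length cancels in its change. Mt-rnr1 had the fewer counts of the pair in every lysate library and the more in every pulldown library. The log2 ratio was higher in RIP by 1.41 (between-library SD 0.18 in Input and 0.10 in RIP, n = 3 each), with no overlap (two-sided exact permutation test, p = 0.1, the smallest possible; 0.156 adjusted over the 28 pairs of members). Ratios without overlap were common: over all pairs of the 13790 tested genes with no zero count, 68.6% had them, in either direction.

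Mt-co1, Mt-co2 and Mt-co3 encode the catalytic core of complex IV, cytochrome c oxidase, which passes electrons to oxygen. Mt-co1 (ENSRNOG00000034234) measured 73860, 52730 and 67760 CPM in Input 1, 2 and 3 and 2142, 1794 and 2062 CPM in RIP. It ranked 2 by Input level among all tested genes, a rank in counts that is not corrected for length. Its RIP values lay close together, and its log2 change, RIP over Input, was -5.02 ± 0.14 (SE; adjusted p of 2.07e-17 by edgeR).

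Mt-co2 (ENSRNOG00000030371), whose product takes electrons from cytochrome c, measured 7314, 4697 and 7609 CPM in Input and 186.6, 135.9 and 175.3 CPM in RIP. Replicate 2 was the lowest in both groups. The log2 change, RIP over Input, was -5.30 ± 0.16 (SE; adjusted p of 8.05e-17 by edgeR). Mt-co3 (ENSRNOG00000030700) measured 22930, 15150 and 20970 CPM in Input and 425.3, 338.3 and 379.9 CPM in RIP, again with replicate 2 lowest in both. Its estimated drop was the largest of the complex IV transcripts, with a log2 change of -5.69 ± 0.15 (SE; adjusted p of 8.79e-18 by edgeR), or 51.6-fold. Summed, the complex IV transcripts made up 9.54% ± 1.37 of each Input library and 0.241% ± 0.0221 of each RIP library (mean and SD, n = 3 each).

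The estimated drops of the complex IV transcripts differed in size, as seen in count ratios taken within each library. The count ratio of Mt-co1 to Mt-co3 was 3.22, 3.48 and 3.23 in Input and 5.04, 5.30 and 5.43 in RIP. That log2 ratio was higher in RIP by 0.67, while the libraries of a group spread by an SD of only 0.06 in each group (n = 3; two-sided exact permutation test, p = 0.1, 0.156 adjusted over 28 pairs). Mt-co2 lay between them: the log2 ratio of Mt-co1 to Mt-co2 was higher in RIP by 0.27 and that of Mt-co2 to Mt-co3 by 0.39, both without overlap between the groups. Of all pairs of tested genes with no zero count, 68.6% had ratios without overlap, so lack of overlap does not set these transcripts apart.

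Mt-atp8 and Mt-atp6 encode subunits of the membrane part of complex V, the ATP synthase, and are known to lie on one shared mRNA with overlapping reading frames. Mt-atp8 (ENSRNOG00000033299) measured 1514, 806.9 and 1616 CPM in Input 1, 2 and 3 and 27.51, 21.23 and 41.94 CPM in RIP. It had the lowest counts of the 8 RNAs and the widest spread in Input. Its log2 change, RIP over Input, was -5.43 ± 0.23 (SE; adjusted p of 8.81e-15 by edgeR). Mt-atp6 (ENSRNOG00000031979), which encodes part of the proton channel, measured 16720, 10720 and 16100 CPM in Input and 380.1, 259 and 408.6 CPM in RIP. Replicate 2 was the lowest in both groups for both transcripts, and RIP 3 the highest of the pulldowns. For Mt-atp6 the log2 change was -5.38 ± 0.18 (SE; adjusted p of 2.31e-16 by edgeR).

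The ratio of Mt-atp8 to Mt-atp6 counts was 0.0905, 0.0753 and 0.1 in Input and 0.0724, 0.082 and 0.103 in RIP. The groups overlapped, and the difference of -0.06 in the log2 ratio was smaller than the SD between libraries (0.21 in Input and 0.26 in RIP, n = 3 each; two-sided exact permutation test, p = 0.8). How reads in the stretch common to both genes were counted is not given in the sources used here, so their counts may not be separate measurements. Summed, the complex V transcripts made up 1.66% ± 0.336 of each Input library and 0.036% ± 0.00907 of each RIP library (mean and SD, n = 3 each).

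Mt-cyb (ENSRNOG00000031766) encodes cytochrome b, the one subunit of complex III that the mitochondrial genome supplies. It measured 24680, 14750 and 21860 CPM in Input 1, 2 and 3 and 7270, 4883 and 9806 CPM in RIP. The pulldown libraries were all below the lysate libraries, with the narrowest gap between the groups among the 8. The log2 change, RIP over Input, was -1.48 ± 0.18 (SE; adjusted p of 2.88e-07 by edgeR), a 2.79-fold drop that ranked 1024 among the 13823 genes, where 15.1% of all tested genes were called lower by 2-fold or more. Leaving out single libraries or same-numbered pairs gave -1.74 to -1.25.

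Every pulldown library held a larger part of the Input level of Mt-cyb than of any of the other 7. In CPM of the library total, RIP 1, 2 and 3 held 30.2%, 21.9% and 45.9% of the mean Input level of Mt-cyb. The same quantity was 3.56% to 4.10% for Mt-rnr1, 2.54% to 3.03% for Mt-co1, 1.49% to 3.06% for Mt-atp8 and 1.29% to 1.63% for Mt-rnr2. Relative to each of the other RNAs within the same library, Mt-cyb was higher in RIP than in Input by 3.06 (against Mt-rnr1) to 4.48 (against Mt-rnr2) on the log2 scale. None of these 7 ratios overlapped between the groups (two-sided exact permutation test, p = 0.1 for each, 0.156 adjusted over 28 pairs). Lack of overlap was common, at 68.6% of all pairs of tested genes with no zero count. The 7 ratios also share the Mt-cyb counts, so they are not separate measurements. The ratio of Mt-cyb to Mt-atp8 was the steadiest of the 7 in the pulldowns: Mt-atp8 counts were 0.00378, 0.00435 and 0.00428 of those of Mt-cyb in RIP, and 0.0613, 0.0547 and 0.0739 in Input. Nuclear DNA is known to hold copies of mitochondrial sequence. Whether reads from elsewhere were counted for Mt-cyb or any other of these genes was not tested, as the table holds no alignments.

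**Figure D2:**
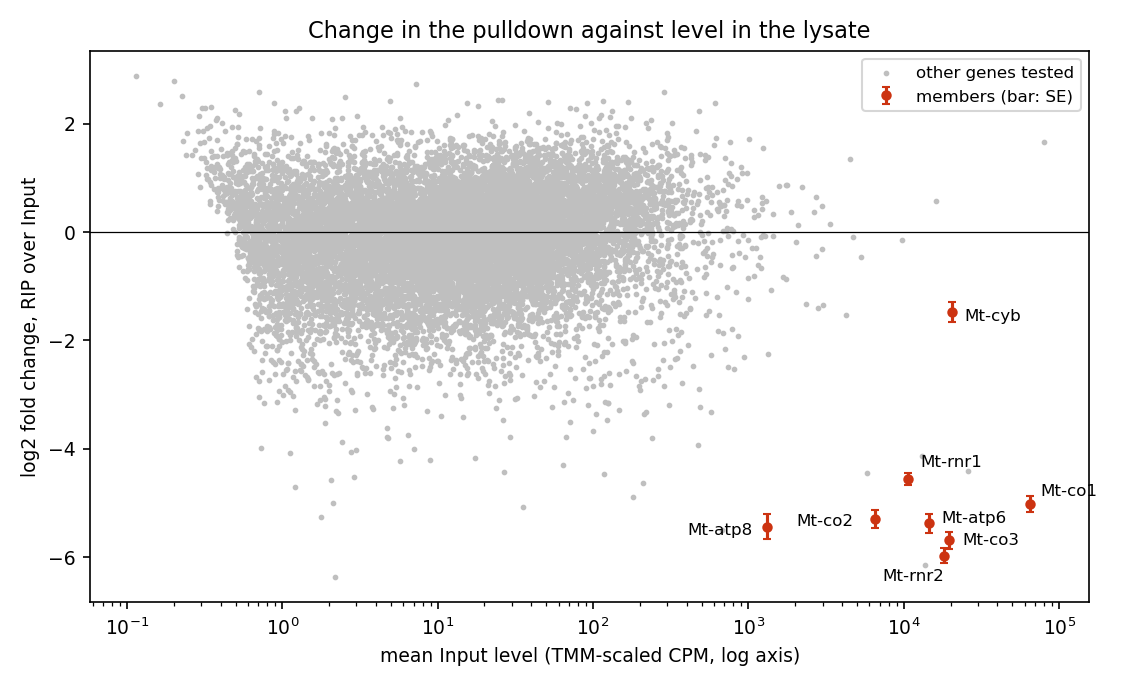
Log2 fold change of RIP over Input from the edgeR fit against the mean Input level in TMM-scaled CPM (log axis), for all 13823 genes tested. Red points are the 8 RNAs with their SE and grey points all other genes. The 7 RNAs other than Mt-cyb lie between -5.97 and -4.56, at the lower right edge, and Mt-cyb lies at -1.48.

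All of these RNAs but Mt-cyb combined high lysate levels with drops among the strongest, as did some other genes. By Input level 7 of the 8 were among the first 20 tested genes, and Mt-atp8 ranked 41. By fold 7 of the 8 were among the 20 most depleted genes, all but Mt-cyb. The 7 held 68.0% of the Input counts of all 91 genes called lower by 8-fold or more, as a mean over the Input libraries, a group that was itself chosen on these libraries. Outside the 8, ENSRNOG00000029042 ranked 14 by Input level and 20 by fold (log2 change -4.44). A further gene ranked 3 by Input level and 22 by fold (log2 change -4.42).

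The relative makeup of these RNAs also differed between pulldown and lysate. Of the summed counts of the 8, Mt-cyb took 14.1%, 11.4% and 13.3% in Input 1, 2 and 3 and 64.3%, 60.2% and 72.4% in RIP. Mt-co1 took 42.3%, 40.8% and 41.2% in Input and 18.9%, 22.1% and 15.2% in RIP. All 8 shares differed without overlap between the groups, Mt-cyb higher in RIP and the other 7 lower (two-sided exact permutation test, p = 0.1 for each, also after adjustment over 8). Shares of a fixed total are bound together, so a higher share of Mt-cyb comes with lower shares of the others. Among the 7 without it, a comparison added after these values were seen, 4 shares did not overlap: Mt-rnr1 and Mt-co1 were higher in RIP, and Mt-rnr2 and Mt-co3 lower (p = 0.1 for each, 0.175 adjusted over 7, exact permutation test). Such shares were not counted for other sets of genes. For count ratios of gene pairs, 68.6% of all pairs of tested genes with no zero count did not overlap. The counts of 8 and 4 are therefore not read as a trait of these RNAs. Mt-rnr1 took 7.93% ± 0.967 of these 7 in Input and 12.3% ± 0.967 in RIP (mean and SD over 3 libraries each). Mt-rnr2 took 13.8% ± 3.36 in Input and 7.94% ± 1.1 in RIP. Mt-co2, Mt-atp8 and Mt-atp6 had overlapping shares, such as 4.77% ± 0.621 in Input and 4.51% ± 0.266 in RIP for Mt-co2.

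**Figure D3:**
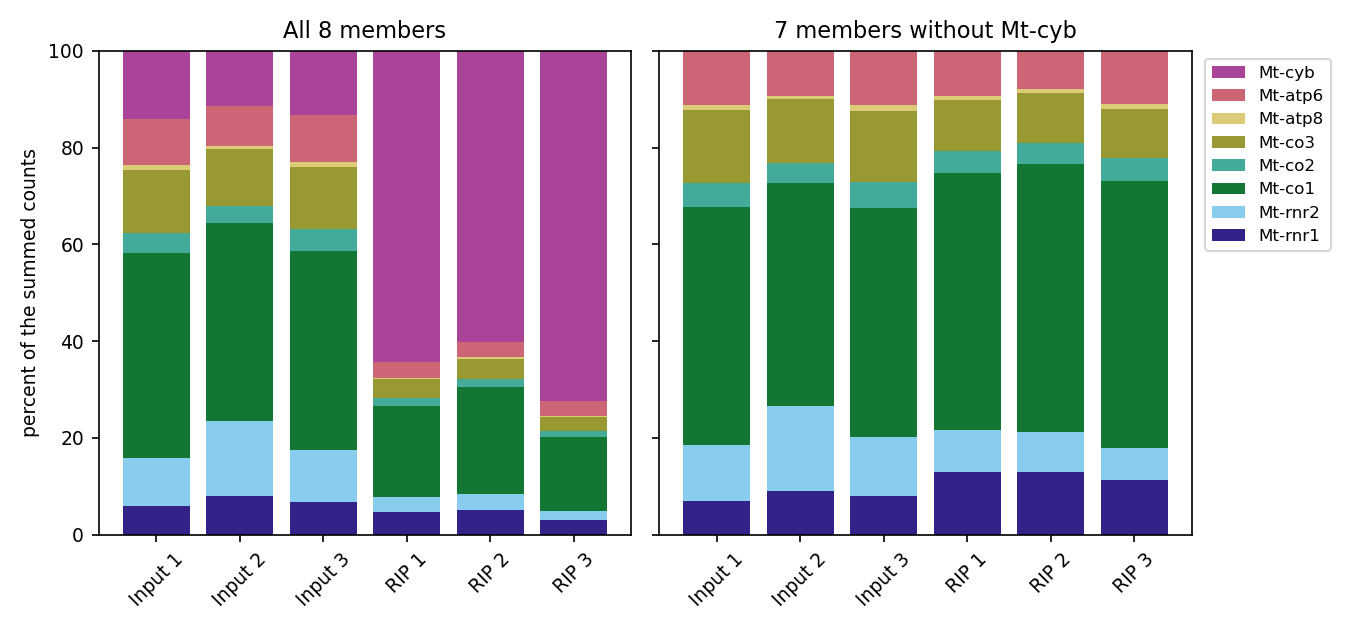
Percent of the summed counts taken by each RNA in the 3 Input and 3 RIP libraries, for all 8 RNAs (left) and for the 7 without Mt-cyb (right). In the left panel Mt-cyb takes 11.4% to 14.1% of each Input bar and 60.2% to 72.4% of each RIP bar. In the right panel Mt-rnr1 and Mt-co1 take more of the RIP bars, and Mt-rnr2 and Mt-co3 less.

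Ordered by fold change, from the strongest drop to the weakest, the RNAs were Mt-rnr2, Mt-co3, Mt-atp8, Mt-atp6, Mt-co2, Mt-co1, Mt-rnr1 and Mt-cyb. By these estimates the ribosomal RNAs stood at both ends of the 7 strongest drops. Mt-atp8 and Mt-atp6 of complex V stood side by side, between Mt-co3 and the other complex IV transcripts. Neighbours from Mt-rnr2 to Mt-co2 did not differ beyond the spread of the libraries, in that their count ratios overlapped between RIP and Input. The last 3 steps of the order, from Mt-co2 to Mt-co1, to Mt-rnr1 and to Mt-cyb, showed no overlap, with log2 differences of 0.27, 0.44 and 3.06. Of all 28 pairs, 18 had ratios that did not overlap between the groups, 7 of them with Mt-cyb and 11 among the remaining 21 pairs. That is 64.3% of the pairs, near the 68.6% over all pairs of tested genes, so the count is no trait of these RNAs. With 3 libraries a group no pair could pass the threshold, and the smallest adjusted p was 0.156.

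**Figure D4:**
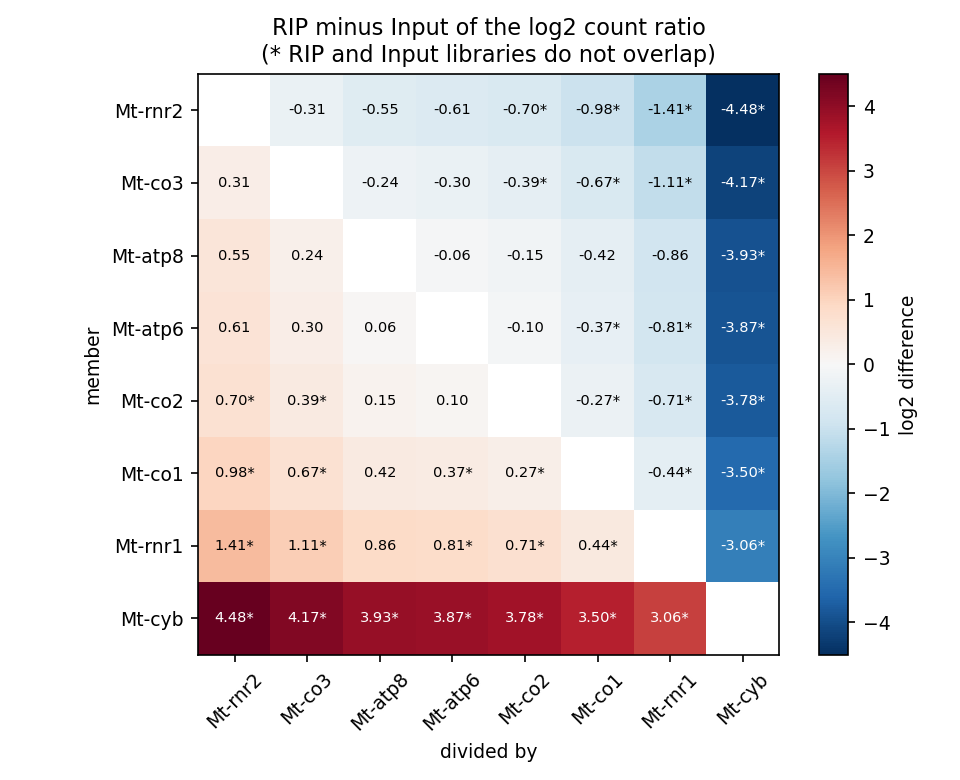
Difference between RIP and Input in the mean log2 count ratio of each pair, row RNA divided by column RNA, in the order of the fold changes. Stars mark the pairs whose 3 RIP ratios and 3 Input ratios do not overlap; values against Mt-cyb run from 3.06 to 4.48 in size and those between the first 5 RNAs reach 0.70.

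The lysate libraries differed among themselves in the same direction for all 6 of these mRNAs. The 6 protein-coding transcripts had their lowest Input share in replicate 2, by a factor between the highest and lowest Input library of 1.29 for Mt-co1 to 1.90 for Mt-atp8. For the ribosomal RNAs the factors were 1.10 for Mt-rnr1 and 1.27 for Mt-rnr2. The Input share of Mt-rnr2 was highest in replicate 2, and that of Mt-rnr1 was lowest in replicate 1, but on the TMM-scaled CPM above Mt-rnr1 was lowest in Input 2 as well. In such bulk libraries, fewer cells of a type and less RNA per cell cannot be told apart. In RIP, 7 of the 8, all but Mt-rnr2, had their lowest share of the library in replicate 2. The share of all tested genes that were lowest in replicate 2 was not counted for either group. The counts of 6 and 7 are therefore not read as a trait of these RNAs. Within RIP the factor was widest for Mt-cyb at 2.09 and Mt-atp8 at 2.06, and RIP 3 was the highest for both. Each of these spreads was far smaller than the TMM-scaled drops of 23.6-fold to 62.7-fold. For Mt-cyb the spread of 2.09 within RIP stood beside a drop of 3.06-fold in the same shares of the library.

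Over the 6 libraries, the 9743 other genes with a mean of at least 5 CPM were ranked by the distance of their log2 CPM profile, centred on its mean, from the mean profile of the 8. The closest was ENSRNOG00000029145, at a root mean square distance of 0.169 on the log2 scale. It measured 42.61, 23.21 and 40.69 CPM in Input 1, 2 and 3 and 1.21, 0.965 and 0.992 CPM in RIP, with Input 2 lowest as for the mRNAs above. The next was ENSRNOG00000029042 at 0.246, with 6379, 5073 and 5990 CPM in Input and 243.8, 237.6 and 320.2 CPM in RIP. For comparison, the members themselves lay at 0.104 (Mt-co1) to 1.69 (Mt-cyb) from their own mean. That mean includes Mt-cyb, and which genes come out closest depends on it. Mt-co1 was nearer to it than both genes just named, and Mt-rnr1 (0.229) and Mt-co2 (0.227) lay between them. The remaining members were farther away, such as Mt-co3 at 0.418 and Mt-rnr2 at 0.633. The names of the other transcripts of the respiratory chain could not be matched to IDs, so no values are given under those names. Whether the genes just listed are themselves mitochondrial transcripts was not tested.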

How the data were processed

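RNA of 3 anti-FLAG pulldowns (RIP) and 3 Inputs was sequenced. The deposited values are raw read counts per gene, 1 column per library, not normalized. STAR, featureCounts and DESeq2 are named per the submitters' processing notes. Their versions, the genome build, the annotation, the strand setting and how multiply mapped reads were handled: not given in the sources used here. Totals were 17265349 to 19325661 counts per library.

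Genes were filtered with filterByExpr (minimum count 10, minimum total 15), scaled by TMM and tested with the quasi-likelihood F test in edgeR 4.0.16 (R 4.3.3), RIP over Input with no covariate, adjusted over all 13823 genes. Standard errors are the absolute log2 fold change divided by the root of F. Single values used two-sided exact permutation tests (scipy 1.17.1). DESeq2 1.42.0 and limma-voom (limma 3.58.1) were alternatives.

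The members, lists and tests were chosen with earlier results of these data known. The rule for other genes named the 5 closest profiles; the 2 closest are printed, as IDs have no symbols here: the gene table used, of assembly GRCr8, gave 0 matches and holds no mitochondrial gene. Member lengths, positions, sequences, levels per length, motif counts, the pathway list and cell type markers planned for were therefore left out. The labels do not say that libraries come from separate cultures, so every p-value speaks only of how these libraries vary, which may be technical. No 2 libraries of a group were duplicates (chi-square per degree of freedom of at least 6.88, over genes with at least 10 counts in the pair).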

Additional observations from a re-analysis of the deposited data

How the results depend on the processing

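All 8 RNAs stayed lower in RIP and past the threshold under each of 18 other fits: other scalings, DESeq2, limma-voom, other filters, libraries or same-numbered pairs left out, and the replicate block. The log2 fold change ranged from -6.18 to -5.84 for Mt-rnr2, from -4.72 to -4.47 for Mt-rnr1 and from -1.74 to -1.25 for Mt-cyb, with adjusted p of at most 7.24e-05. The log2 ratio of the summed share, -3.97 for all 8, was -5.36 without Mt-cyb, and the number of shares within the sum that did not overlap went from 8 to 4 of 7; both were added after seeing the data and follow from leaving out the RNA with the smallest drop. With the gene of the highest total count left out of the totals, the log2 ratio for the ribosomal RNAs went from -5.45 to -5.18 and for complex IV from -5.31 to -5.04. With the replicate block, 8 of 8 RNAs were again lower, Mt-cyb at -1.51. Its adjusted p by edgeR was 1.71e-12 with the block and 2.88e-07 without it, and those of the other RNAs were smaller with the block too. The labels do not say that equal numbers pair the libraries, so the numbers were not taken as pairs in the main fit. Same-numbered libraries deviated together only weakly (r of 0.053, 0.077 and 0.053 across genes), although each library's closest partner in the other group was the one of its own number. The block called 4877 genes lower in place of 4824.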
